A study of Homo sapiens with 46 samples.

Results

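The genes described here are 97 very long protein-coding genes that DLD-1 cells transcribe at a measurable level. A gene was taken when it was protein-coding, when its counted exons spanned at least 500 kb from the first to the last base, and when its mean over all 46 libraries was at least 5 CPM, counts scaled to a common library size. Genes on chromosomes 18, X and Y and 3 named genes were left out. The rule kept 97 of 303 protein-coding genes of that span, out of 62757 genes in the count table. The members were thus chosen by their mean level, which is given only as a description. DLD-1 is an established colorectal adenocarcinoma line that grows attached. The groups were the untagged parental line and 3 lines derived from it, LA/C-AID, LB1-AID and LB2-AID (LAC, LB1 and LB2 below), in which 1 endogenous lamin (A/C, B1 or B2, in that order) carries a degron, a tag that has the protein degraded once auxin is added. Each line had 0, 16 or 96 h of 1 mM auxin, also the parental one, whose samples show what auxin does without a degron. Of the 12 groups, 10 had 4 libraries and 2 (LB1 at 0 h and LB2 at 96 h) had 3. A library was 1 well of a culture plate, so the tests measure the spread between wells. The labels do not say whether a tagged line is 1 clone or whether wells at 0 h received the solvent of auxin, DMSO. A tagged line and its degron cannot be told apart from the way the line was derived.

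Almost all of a very long gene is intron, and RNA polymerase II needs hours to cross it. Such genes depend on elongation factors and topoisomerases, and on U1 snRNP, which keeps transcripts from ending early inside introns. Many act in neurons, in cell adhesion and in signalling, and several lie at common fragile sites, which break under replication stress. Lamins form the meshwork under the inner nuclear membrane, where large, sparsely transcribed domains of chromatin lie. Lamins A and C come from 1 gene, LMNA, and the B-type lamins from LMNB1 and LMNB2. In RNA from whole wells, fewer cells that transcribe a gene and less RNA per cell cannot be told apart.

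The windows before the starts of 4 members are shown because the results below turn on these genes and because they range from very rich to poor in the dinucleotide CG. Each line gives the 250 bases before the start listed by RefSeq, read 5′ to 3′ on the gene's own strand and on GRCh38.p14, with each CG in capitals. The window of SEMA5A, a semaphorin that guides axons and cells, lies at chr5:9546076-9546325 on the minus strand, and 82.0% of it is G or C, with 33 CG. That of MAPK10, the stress-activated kinase JNK3, lies at chr4:86360054-86360303 on the minus strand, with 54% and 8 CG. That of CCSER1, a little-described coiled-coil serine-rich protein, lies at chr4:90127144-90127393 on the plus strand, with 63.6% and 18 CG. That of UTRN, utrophin, which ties actin to the membrane, lies at chr6:144285085-144285334 on the plus strand, with 73.2% and 24 CG.
SEMA5A: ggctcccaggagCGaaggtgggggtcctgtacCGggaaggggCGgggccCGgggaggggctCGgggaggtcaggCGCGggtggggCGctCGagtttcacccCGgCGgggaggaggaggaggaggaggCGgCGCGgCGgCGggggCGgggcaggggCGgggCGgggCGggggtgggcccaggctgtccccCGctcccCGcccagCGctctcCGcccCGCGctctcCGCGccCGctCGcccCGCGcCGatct
MAPK10: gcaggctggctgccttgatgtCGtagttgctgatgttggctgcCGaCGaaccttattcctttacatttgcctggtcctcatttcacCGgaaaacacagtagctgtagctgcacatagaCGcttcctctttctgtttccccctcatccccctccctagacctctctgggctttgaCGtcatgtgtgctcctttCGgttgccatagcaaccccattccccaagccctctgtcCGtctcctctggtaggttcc
CCSER1: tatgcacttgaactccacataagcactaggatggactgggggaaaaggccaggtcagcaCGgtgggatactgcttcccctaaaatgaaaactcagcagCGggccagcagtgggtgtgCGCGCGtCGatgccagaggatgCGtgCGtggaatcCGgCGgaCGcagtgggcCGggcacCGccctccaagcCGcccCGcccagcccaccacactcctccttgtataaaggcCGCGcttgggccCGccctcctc
UTRN: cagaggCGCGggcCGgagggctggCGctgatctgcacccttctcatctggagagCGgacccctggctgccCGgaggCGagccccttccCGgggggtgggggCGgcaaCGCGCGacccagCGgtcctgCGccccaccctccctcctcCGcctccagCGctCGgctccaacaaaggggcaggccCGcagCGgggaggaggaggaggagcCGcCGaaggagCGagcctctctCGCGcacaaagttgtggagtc

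A 300-base window, from 250 bases before to 50 after the start, was found by symbol for 82 of the 97 members in the RefSeq table. Median GC content of these windows was 66.5%, against 65.7% in 8212 protein-coding genes at 5 CPM or more. The median number of CG was 26.5 against 27. Windows with under 10 CG, as in MAPK10, were 15.9% of the members' (13 of 82) and 8.41% of those of the 8212 genes. The letters TATAAA, searched on both strands, stood in 5 member windows (6.1%, against 5.3%), among them that of CCSER1. CCAAT stood in 26 (31.7%, against 37.5%), and TGANTCA, the letters of an AP-1 site, in 1 (1.22%, against 3.98%). None of these 3 motifs overlaps another in its letters, and a match is only a description of the letters. The listed start is not always at the end of the counted span. It lay within 1 kb of the outer end for 56 of 82 members and over 100 kb inside it for 18. From the listed start, 17 of the 82 have under 500 kb left, FHIT and MAPK10 among them. The least is left in EGLN3 (4.99% of the span), RASGEF1B (7.37%), RUNX1 (8.29%), GSE1 (12.4%) and RORA (18.8%). CEP112 has 34.3% left. These genes are very long only by their counted span. The start of SEMA5A lies at the outer end, and that of MAPK10 lies 235 kb inside. That of ANK2 lies 112 kb outside the counted span.

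The median span of the members was 638 kb (503030 to 1697918 bases), and 10 reach 1 Mb. The longest were NRXN3, a presynaptic adhesion protein (chr14:78170373-79868291), PDE4D, a cAMP phosphodiesterase (chr5:58969038-60522120), and FHIT, a nucleotide hydrolase at a fragile site (chr3:59747277-61251459). CCSER1 (chr4:90127394-91605295) and TBC1D5, which acts on Rab GTPases in endosomal traffic (chr3:17157162-18444817), follow them. The members lie on 20 chromosomes, with 11 on chromosome 3. Introns made up a median of 98.1% of the span (lowest 90.1%), and the counted exons a median of 13278 bases. Median GC content of the transcripts was 45.5% (38.1 to 56.9%). Mean levels ran from 5.05 to 282 CPM, the highest in RORA, a nuclear receptor. Per kb of exon, the highest levels were those of PTPRK, a receptor phosphatase of cell contacts (20.3 CPM per kb), ADK, adenosine kinase (18.3), PDE4D (16.6), RORA (16.6) and GSE1, a chromatin protein (15.5). Just inside the span limit were DNAH14, ERC1 and GSE1 (503030, 505424 and 506679 bases). Just outside were DIAPH3, ITPR2 and RPS6KA2 (498345, 497842 and 497087 bases). Just inside the level limit were CCDC171, ARHGAP24 and MECOM (5.05, 5.15 and 5.24 CPM), and just outside TSHZ2, HDAC9 and KCNAB1 (4.98, 4.64 and 4.63 CPM). Overlap with other genes was common: 94 members hold another gene within their span, and 54 share exon bases with one, 13 of them on the same strand. The strand setting of the count is not given in the sources used here, so shared bases make those members' counts uncertain. Among members named below, FOXP1 shares 2539 bases on its own strand with ENSG00000285708.1 and CCSER1 shares 2018 with ENSG00000279013.1. MAPK10 shares 999 bases with ARHGAP24 on the opposite strand, and SEMA5A 436 with ENSG00000250619.1.

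Library totals ran from 479448 to 37309713 counts (median 11533344), and 6 libraries held under 5000000. A count of 3, the most that a count of 0 allows, was 0.0821 to 6.53 CPM, counting error only, and 5 members were at 0 in the least deep library. Of 10 markers of colorectal epithelium, 8 had a median of at least 1 CPM, CDX1 being at 0 and CEACAM5 at 0.434. Of 14 markers of other cells, 4 did (COL1A1, VWF, CD14 and MAP2), and COL1A2 and HBB were at 0 in all 46 libraries. Mean levels of the tagged gene's transcript at 0 h, in the tagged and in the parental line, were for LMNA 435 ± 230 CPM in LAC against 738 ± 111, for LMNB1 94.7 ± 7.31 in LB1 (SD, n = 3) against 147 ± 8.92, and for LMNB2 143 ± 79.1 in LB2 against 283 ± 32.5 (SD, n = 4 elsewhere). A degron acts on the protein, which was not analysed here. In 3 libraries the members as a whole stood low. In each library, every member's log2 CPM was set against its mean over all libraries, and the median of these deviations was -0.65 in LAC at 0 h, replicate 1, -0.42 in LB2 at 0 h, replicate 1, and -0.50 in LB2 at 16 h, replicate 3. The same 3 libraries had under 5000000 counts and high medians for genes under 10 kb (0.44, 0.37 and 0.20). The other LAC libraries at 0 h were between -0.13 and -0.03. The main counts of LAC and LB2 are also given without these libraries.

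**Figure D1:**
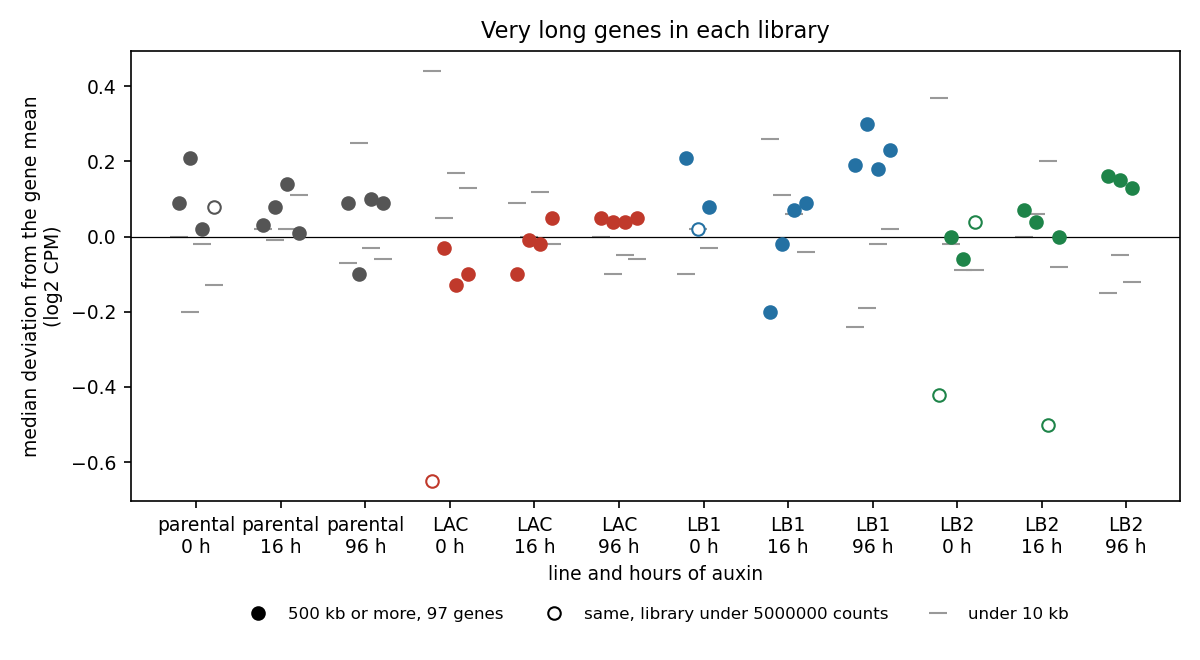
Median deviation of log2 CPM from each gene's mean over all libraries (vertical axis), by line and hours of auxin (horizontal axis), for the 97 very long genes (circles, open where the library held under 5000000 counts) and for 1656 genes under 10 kb (grey bars). The 4 LAC libraries at 96 h lie between 0.04 and 0.05 and the 4 LB1 libraries at 96 h between 0.18 and 0.30, while 3 open circles lie at -0.42 or lower.

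Levels of the members differed between groups by 1.14-fold (DENND1A, a guanine exchange factor for Rab35) to 8.67-fold (SEMA5A), with a median of 1.95-fold between the highest and the lowest group mean. LB1 at 96 h was the highest group for 28 members, and LAC at 0 h the lowest for 31 (27 and 24 without the 3 low libraries). Changes below are log2 changes with their standard error from an edgeR quasi-likelihood fit of all 46 libraries, called at an adjusted p under 0.05 over 21485 genes. A member "rose" or "fell" only where it was called. Of the members, 48 were called in none of the 8 comparisons of a line with its own 0 h group, and 27 in none of all 14 comparisons. Neither these counts nor those of the highest and lowest groups are given here for all genes, so they only describe the members. No member was called the same way at 96 h in all 4 lines. A shared direction below the threshold is not excluded by this. At 96 h SEMA5A was above 0 and UTRN below 0 in all 4 lines, though neither was called in each.

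In the parental line, where auxin has no degron to act on, 8 members rose and 9 fell at 16 h (17.5% of members, against 9.01% of all genes called, 4.23% higher and 4.78% lower). With RLE scaling these became 1 and 16, and with library sizes alone 1 and 15. Over all genes the same scalings shifted the median by -0.10 and -0.12 and left 2.23% and 1.69% called higher and 6.23% and 6.25% lower. Leaving out any 1 library but parental at 0 h, replicate 2, gave 7 to 11 called members. The median change was -0.00, against -0.04 over all genes, and ran from -0.12 to 0.09 over the alternatives. The largest fall was that of MCTP1, a calcium-binding protein with C2 domains (chr5:94703690-95285094). Its levels were 14.7, 18.7, 20.6 and 19.8 CPM at 0 h and 6.82, 6.62, 7.26 and 8.38 CPM at 16 h. Every library at 16 h lay below every library at 0 h. The log2 change was -1.35 ± 0.17 (SE; edgeR adjusted p 1.45e-06). ARHGAP24, a GTPase-activating protein for Rac, changed by -1.06 ± 0.27 (edgeR adjusted p 0.0107), a call that 2 of 16 alternatives lost. KSR2, a scaffold of the MAP kinase pathway, rose by 0.69 ± 0.17 (edgeR adjusted p 0.00939), from 20.2 ± 1.51 to 32.5 ± 2.44 CPM (SD, n = 4 each). TENM3, a teneurin adhesion protein, rose by 0.55 ± 0.18 (edgeR adjusted p 0.0399), a call that 10 of 16 alternatives lost.

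At 96 h in the parental line, 5 members rose and 7 fell (12.4%, against 7.79% of all genes, 3.95% higher and 3.84% lower), or 3 and 8 with RLE scaling and 2 and 8 with library sizes alone (2.92% and 2.34% of all genes higher, 4.92% and 5.24% lower). The median was -0.08, against -0.03 over all genes. Without parental at 0 h, replicate 4, or at 96 h, replicate 1, 7 members were called. CEP112, a centrosomal protein (chr17:65635537-66192133), had 10.4, 8.34, 11.1 and 8.46 CPM at 0 h and 5.15, 3.59, 3.03 and 5.88 CPM at 96 h. The 2 groups did not overlap, and the change was -1.08 ± 0.25 (edgeR adjusted p 0.00372). ANK2, an ankyrin that ties membrane proteins to the spectrin skeleton (chr4:112818032-113384221), had 11.2, 14.0, 15.1 and 9.91 CPM at 0 h and 8.91, 6.88, 5.35 and 7.54 CPM at 96 h. These too did not overlap, and the change was -0.80 ± 0.20 (edgeR adjusted p 0.00731). UTRN fell by 0.58 ± 0.14 (edgeR adjusted p 0.00717; lost in 2 of 16 alternatives), from 159, 211, 159 and 179 CPM to 126, 99.8, 126 and 123 CPM, again without overlap. KSR2 rose by 0.69 ± 0.17 (edgeR adjusted p 0.00866) and GMDS, the enzyme that starts GDP-fucose synthesis, by 0.57 ± 0.14 (edgeR adjusted p 0.00606).

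**Figure D2:**
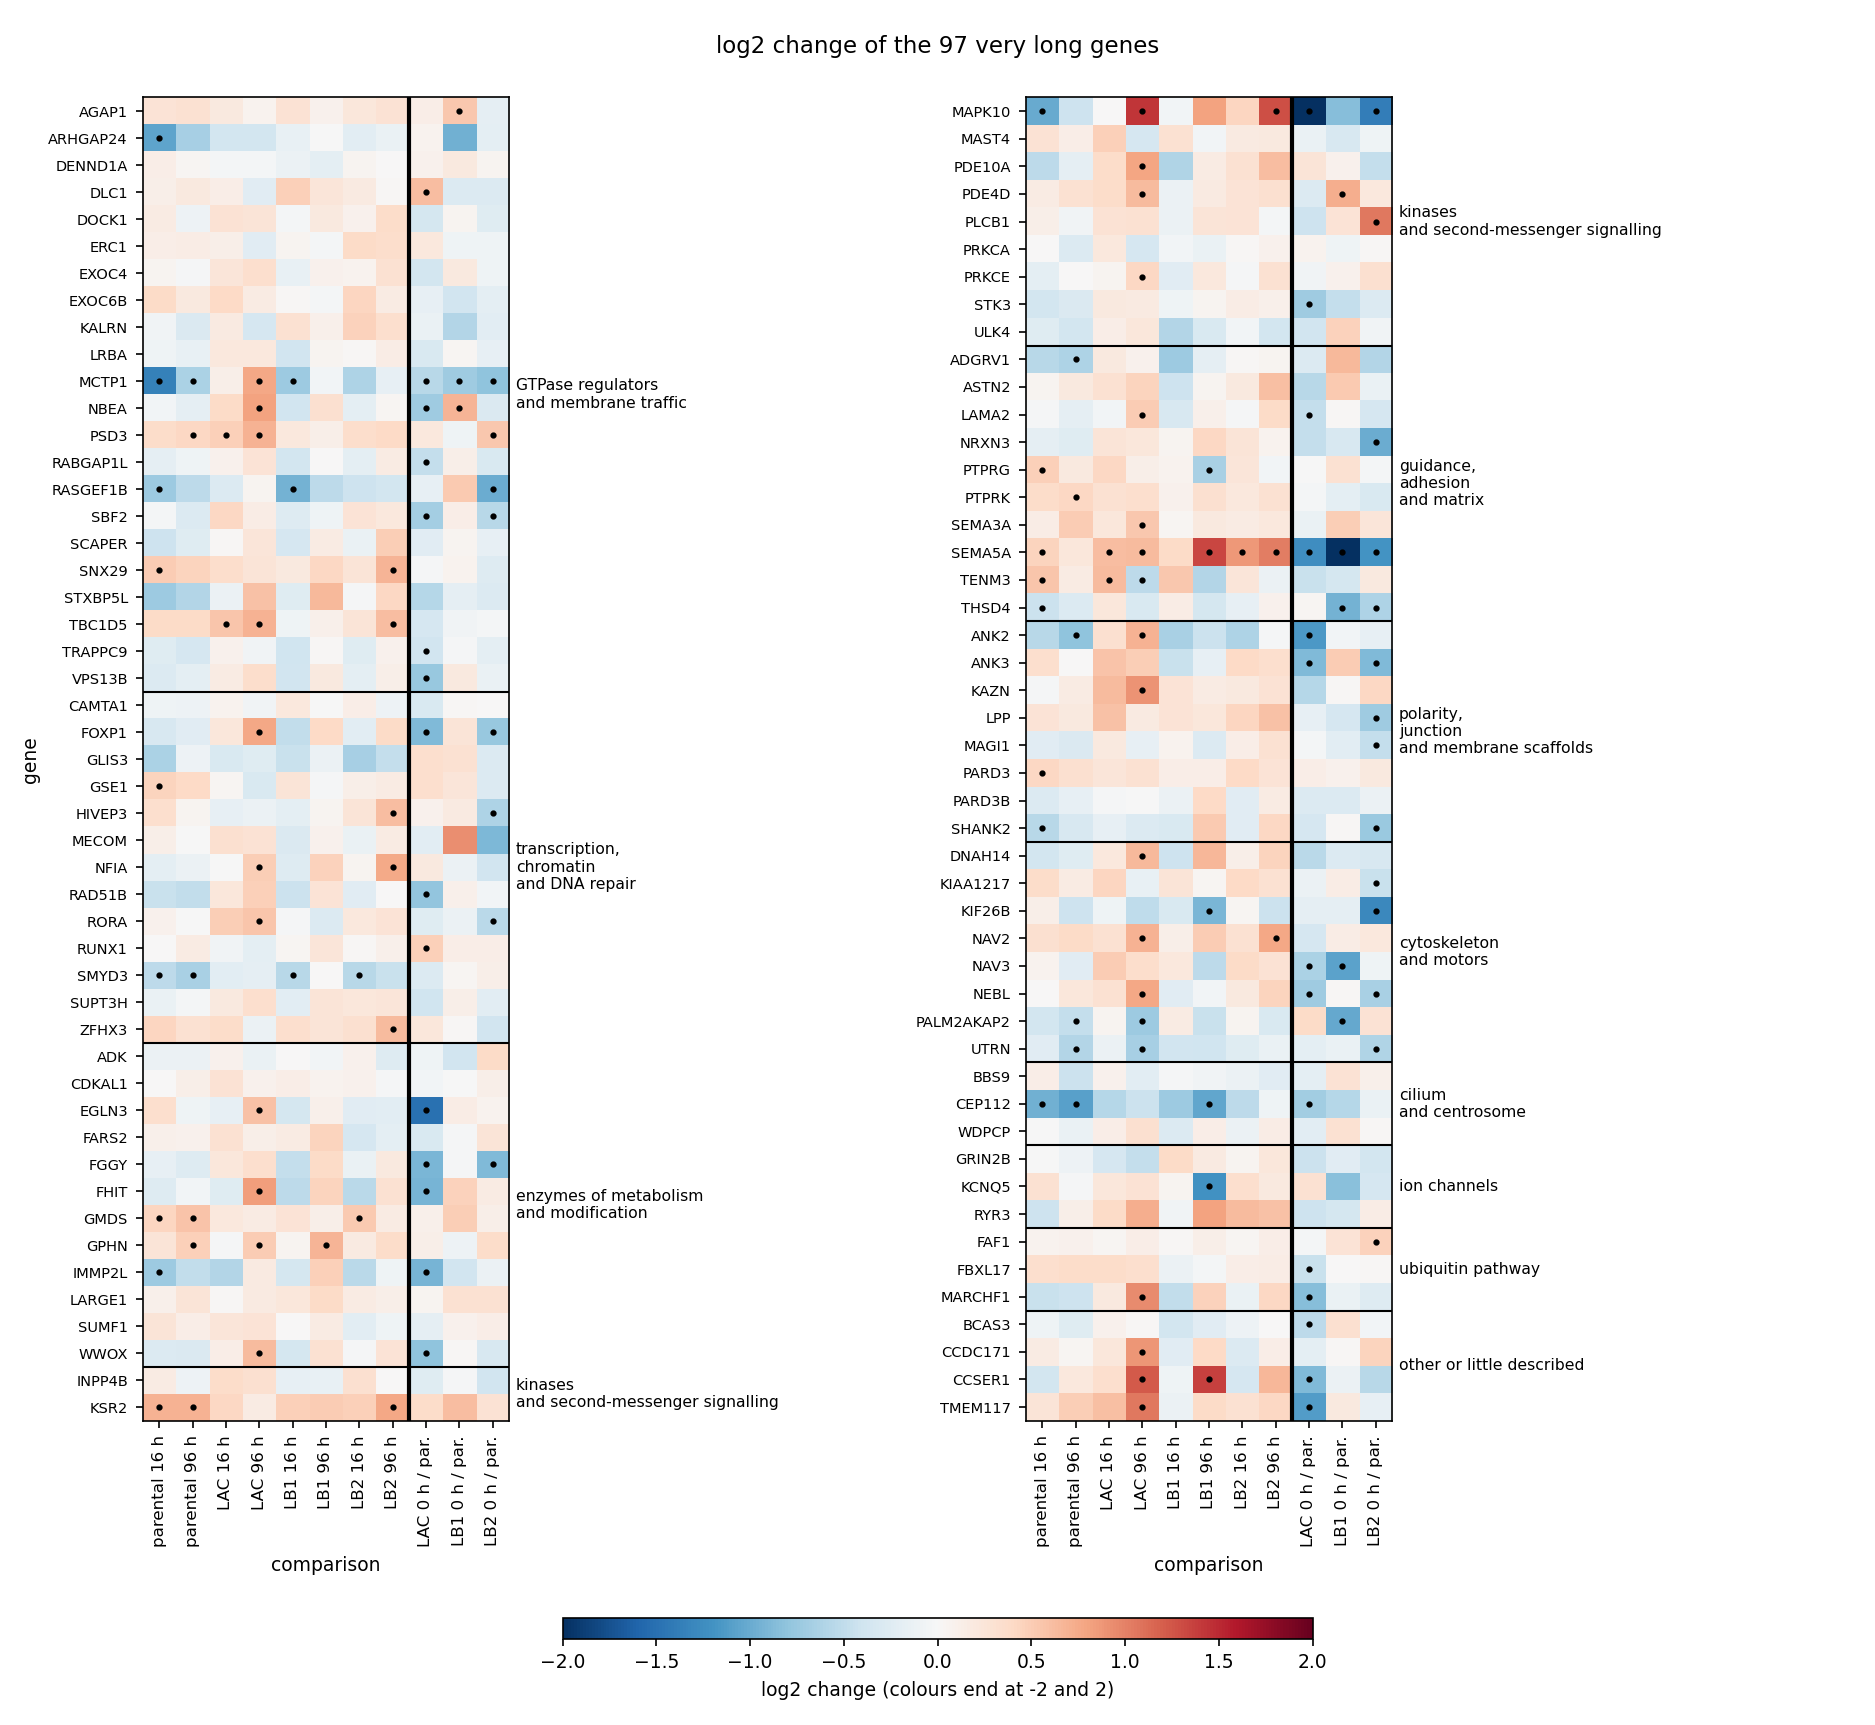
log2 changes of the 97 very long genes (one gene a line, in blocks by role) in 11 comparisons: the 16 and 96 h groups of a line with its 0 h group, and the 3 tagged lines with the parental one before auxin. Red is higher and blue lower, with colours ending at -2 and 2, and a dot marks a call. The LAC column at 96 h holds 30 dots, 27 of them in red cells, and the LAC column at 0 h holds 29, 27 of them in blue cells.

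In LAC, most called members were lower than in the parental line before auxin, and most of those called at 96 h had risen. At 0 h, 2 members were higher and 27 lower than in the parental line (29.9%, against 15.8% of all genes, 8.71% higher and 7.09% lower). The median was -0.27, against -0.06 over all genes, and 75 of 97 log2 changes were below 0. At 96 h against 0 h, 27 members rose and 3 fell (30.9%, against 15.4% of all genes, 6.74% higher and 8.65% lower), with a median of 0.25 against 0.03 and 69 values above 0. Both comparisons use the LAC libraries at 0 h, so they are not independent, and 14 members were called in both. One of these libraries is replicate 1, in which the median of the members stood low. Without it, 5 members were higher and 19 lower than in the parental line (median -0.17), and 20 rose and 3 fell at 96 h (median 0.14). Shares and medians over all genes without this library are not given, here or below, so such counts are only descriptions. Within the LAC and parental libraries alone, 0 and 16 members were called at 0 h (610 and 708 of 14543 genes). Within the LAC libraries alone, 13 and 2 were called at 96 h (474 and 594 of 17167 genes). Scaling by library size alone put the median over all genes at 0.15 for 96 h and at -0.24 for 0 h, a shift of 0.12 and -0.18. With it 34 members rose and 2 fell at 96 h, against 12.1% of all genes higher and 6.0% lower. At 16 h, 4 members rose and none fell in the edgeR fit (4.12%, against 1.78% of all genes, 1.34% higher and 0.447% lower), with a median of 0.21 against -0.02. An unadjusted p under 0.05 was found for 28 members and for 4296 of all 21485 genes. The 4 risen members were SEMA5A, TENM3, TBC1D5 and PSD3, an exchange factor for ARF6, the last 2 named after their values were seen. DESeq2 called 7 higher and 0 lower at 16 h. Without LAC at 0 h, replicate 2, 17 members were called at 16 h, and without any other 1 of the 8 libraries 0 to 2.

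MAPK10 had its lowest group mean in LAC at 0 h, close to that in LAC at 16 h (2.45 ± 0.414 and 2.60 ± 0.790 CPM; SD, n = 4). The levels were 11.9, 11.2, 11.7 and 18.8 CPM in the parental line and 1.94, 2.55, 2.38 and 2.94 CPM in LAC at 0 h. After 96 h LAC held 4.58, 6.71, 7.45 and 9.02 CPM. The LAC groups at 0 and 96 h did not overlap, and all LAC libraries at 96 h lay below all parental libraries at 0 h. The change at 0 h against the parental line was -2.36 ± 0.31 (edgeR adjusted p 4.13e-07). The change in LAC at 96 h was 1.43 ± 0.31 (edgeR adjusted p 0.000998). In the parental line MAPK10 fell at 16 h, to 5.37, 7.5, 9.57 and 3.68 CPM, by 1.01 ± 0.28 (edgeR adjusted p 0.0184), a call that 3 of 16 alternatives lost.

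CCSER1 levels in LAC were 1.94, 4.29, 4.45 and 5.73 CPM at 0 h, 5.5, 4.96, 5.19 and 6.45 CPM at 16 h and 10.1, 11.0, 9.26 and 11.1 CPM at 96 h. Libraries at 96 h lay above all the others of the line. The change at 96 h was 1.23 ± 0.22 (edgeR adjusted p 9.55e-05) and was called under all 16 alternatives. The 3 members that fell in LAC at 96 h were PALM2AKAP2, UTRN and TENM3. PALM2AKAP2, a fusion gene of paralemmin 2 and an anchor of protein kinase A (chr9:109498325-110172512), went from 65.7, 89.9, 93.1 and 86.1 CPM to 60.1, 42.8, 46.2 and 53.3 CPM, by -0.73 ± 0.15 (edgeR adjusted p 0.00049). UTRN went from 114, 163, 158 and 177 CPM to 109, 84.7, 89.2 and 105 CPM, by -0.67 ± 0.14 (edgeR adjusted p 0.000941). In both genes the groups did not overlap.

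Against the parental line at 0 h, the largest differences in LAC after MAPK10 were those of EGLN3 and SEMA5A. EGLN3, a prolyl hydroxylase that acts on hypoxia-inducible factor (chr14:33924227-34462774), had 22.7, 21.5, 21.0 and 26.1 CPM in the parental line and 10.7, 8.91, 4.77 and 8.07 CPM in LAC. No library of 1 line reached the range of the other, and the difference was -1.50 ± 0.17 (edgeR adjusted p 1.73e-08). From the listed start of EGLN3, only 4.99% of its span is left. FOXP1, a forkhead transcription factor named after its values were seen (chr3:70954693-71583978), had 33.4, 34.3, 33.2 and 42.0 CPM in the parental line at 0 h and 9.71, 22.8, 23.3 and 18.5 CPM in LAC. In LAC at 96 h it had 32.9, 30.3, 36.9 and 32.1 CPM. LAC at 96 h lay above LAC at 0 h in every library. At 96 h 3 LAC libraries lay below the range of the parental libraries at 0 h and 1 within it. The difference at 0 h was -0.88 ± 0.16 (edgeR adjusted p 0.000108) and the change at 96 h 0.78 ± 0.16 (edgeR adjusted p 0.000456), and neither call was lost in an alternative. DLC1 and RUNX1, a transcription factor of the blood lineage, were the 2 members higher in LAC at 0 h, by 0.62 ± 0.17 (edgeR adjusted p 0.0111) and 0.48 ± 0.13 (edgeR adjusted p 0.00637). Each of these 2 calls was lost in 2 of 16 alternatives.

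**Figure D3:**
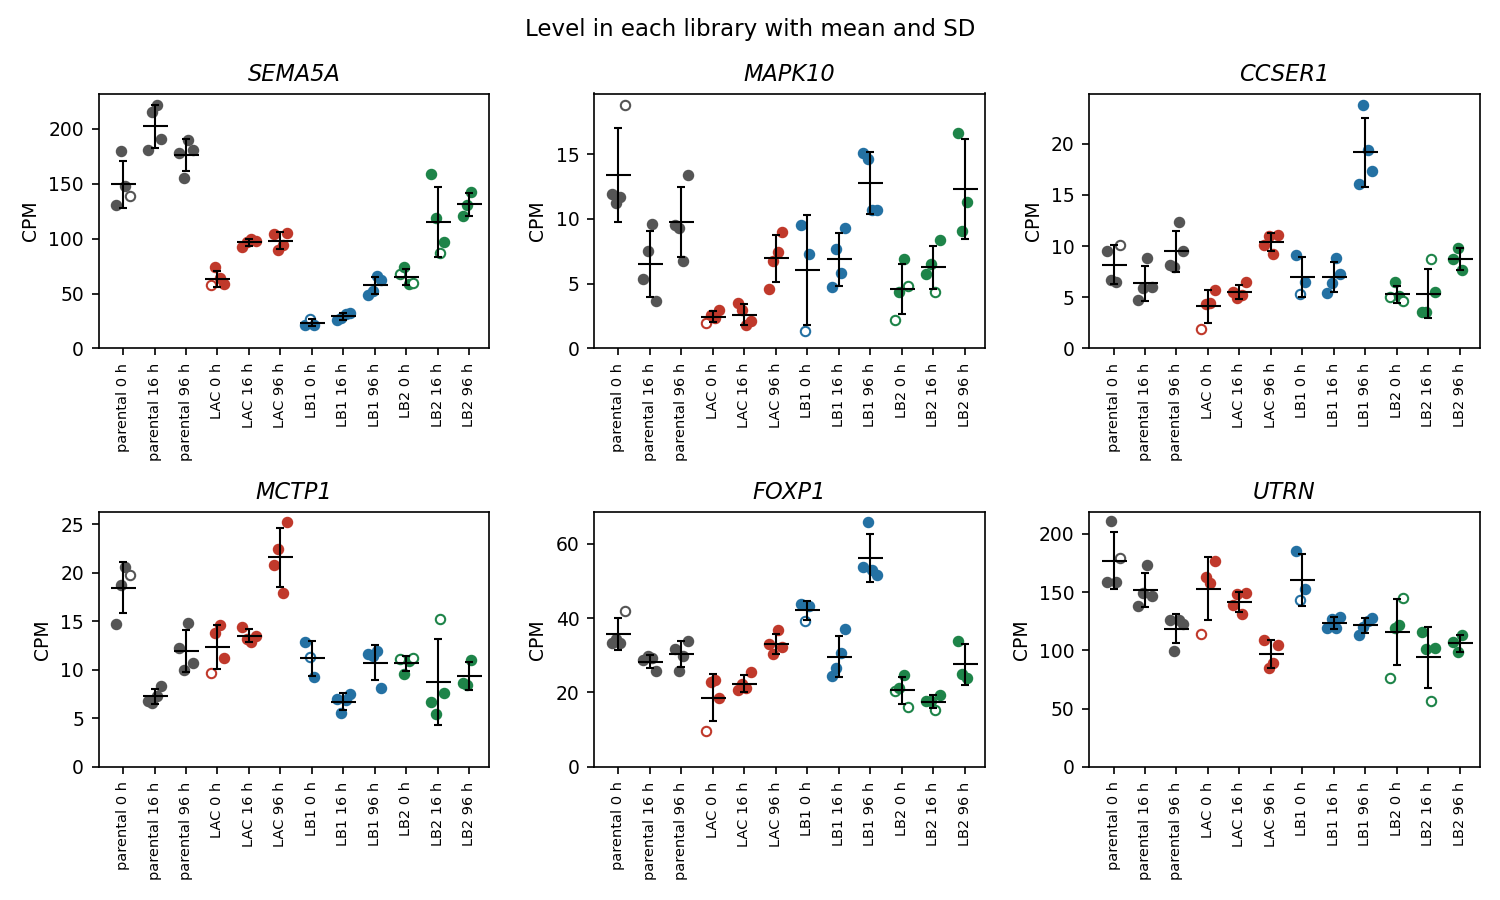
Level in CPM (vertical axis from 0) of 6 very long genes in each of the 46 libraries, by line and hours of auxin (horizontal axis), with the mean and SD of each group in black and open circles for libraries under 5000000 counts. SEMA5A is highest in the parental line (131 to 222 CPM) and lowest in LB1 at 0 h (21.3 to 27.2 CPM). MAPK10 and CCSER1 are higher in LAC at 96 h than in any LAC library at 0 h.

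LB1 held few called members, and SEMA5A was the largest difference among them. SEMA5A (chr5:9035033-9546075) had 131, 180, 148 and 139 CPM in the parental line at 0 h and 21.6, 27.2 and 21.3 CPM in LB1. LB1 at 96 h had 48.9, 52.6, 66.0 and 61.9 CPM. The lowest parental library was thus above the highest LB1 library at any time, and LB1 at 96 h was above LB1 at 0 h without overlap. The difference from the parental line at 0 h was -2.73 ± 0.16 (edgeR adjusted p 4.05e-18) and the change at 96 h 1.34 ± 0.16 (edgeR adjusted p 4.94e-08). At 0 h, 3 members were higher and 5 lower in LB1 than in the parental line (8.25%, against 4.05% of all genes, 1.62% higher and 2.43% lower), or 2 and 6 with RLE scaling. In all, 5 were called without parental at 0 h, replicate 3, and 4 without LB1 at 0 h, replicate 3. The median was 0.03, against -0.03, and changed sign among the alternatives (-0.03 to 0.10). NAV3, a microtubule-binding neuron navigator, differed by -1.07 ± 0.26 (edgeR adjusted p 0.00822; lost in 2 of 15 alternatives). PDE4D differed by 0.73 ± 0.21 (edgeR adjusted p 0.0275; lost in 5 of 15), and NBEA, a protein of membrane traffic, by 0.68 ± 0.20 (edgeR adjusted p 0.0433; lost in 8 of 15).

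At 16 h none rose in LB1 and 3 members fell in the edgeR fit (3.09%, against 1.5% of all genes, 0.987% higher and 0.517% lower), with a median of -0.11 against -0.01. An unadjusted p under 0.05 was found for 21 members and for 3289 of all 21485 genes. DESeq2 called 0 and 9 members. Without LB1 at 16 h, replicate 4, 3 were called, and without any other 1 library 0 or 1. The 3 were RASGEF1B, an exchange factor for Rap2 (-0.94 ± 0.22, edgeR adjusted p 0.0157; lost in 4 of 15 alternatives), MCTP1 (-0.73 ± 0.19, edgeR adjusted p 0.0406; lost in 8 of 15) and SMYD3, a lysine methyltransferase. At 96 h 3 rose and 4 fell (7.22%, against 3.17% of all genes, 1.05% higher and 2.12% lower), or 5 and 3 with library sizes alone, and the median was 0.10 against 0.04. Without LB1 at 0 h, replicate 2, 3 were called in all, and 4 without LB1 at 96 h, replicate 2 or 4. CCSER1 rose by 1.36 ± 0.24 (edgeR adjusted p 0.000137), from 9.17, 5.31 and 6.44 CPM to 16.1, 23.8, 19.4 and 17.3 CPM, with no overlap and with a call under all 15 alternatives. KCNQ5, a voltage-gated potassium channel (chr6:72621792-73198853), had 5.9, 12.6 and 3.87 CPM at 0 h and 2.43, 1.87, 3.62 and 2.19 CPM at 96 h. The groups lie apart by little, the fall was -1.21 ± 0.32 (edgeR adjusted p 0.0189), and 5 of 15 alternatives lost the call. CEP112 fell by 1.04 ± 0.28 (edgeR adjusted p 0.0207), which 5 of 15 also lost.

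In LB2, as in LAC, more members were lower than higher before auxin. The same parental libraries served for LB2 and LAC, so this likeness is not independent. At 0 h, 3 were higher and 19 lower than in the parental line (22.7%, against 8.2% of all genes, 3.91% higher and 4.3% lower), with a median of -0.17 against -0.03. At 96 h against 0 h, 9 rose and none fell in the edgeR fit (9.28%, against 3.55% of all genes, 1.95% higher and 1.6% lower), with a median of 0.19 against -0.00. With an unadjusted p under 0.05 there were 30 members at 96 h and 3450 of all 21485 genes. DESeq2 called 15 members higher and 1 lower. Both comparisons share the LB2 libraries at 0 h, and 3 members were called in both. Without the 6 libraries under 5000000 counts, 10 rose and 1 fell at 96 h, and 5 were higher and 20 lower at 0 h. Of all 22424 genes then tested, 680 were called higher and 534 lower at 96 h, and 1157 and 1190 at 0 h. The libraries left out include LB2 at 0 h, replicates 1 and 4, and parental at 0 h, replicate 4, so these groups are smaller. Within the compared libraries alone the calls came to 1 and 0 at 96 h and to 0 and 7 at 0 h. At 16 h, where replicate 3 held the fewest counts of all libraries, 2 rose and 1 fell (3.09%, against 1.81% of all genes, 1.43% higher and 0.377% lower), or 1 and 1 with RLE scaling or library sizes alone. The median at 16 h was 0.09, against -0.02, and changed sign among the alternatives (-0.03 to 0.18). Without libraries under 5000000 counts 6 rose and 0 fell at 16 h. In all, 7 were called without LB2 at 16 h, replicate 3, 5 without LB2 at 0 h, replicate 2, and 1 without LB2 at 0 h, replicate 3 or 4, or at 16 h, replicate 1 or 2.

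SEMA5A had 67.6, 74.3, 58.2 and 59.9 CPM in LB2 at 0 h, 159, 119, 87.0 and 96.7 CPM at 16 h and 121, 131 and 142 CPM at 96 h. All libraries with auxin lay above all those without. It rose by 0.87 ± 0.14 at 16 h (edgeR adjusted p 8.3e-05; lost in 1 of 16 alternatives) and by 1.02 ± 0.14 at 96 h (edgeR adjusted p 4.3e-06). MAPK10 had 2.22, 4.39, 6.9 and 4.84 CPM at 0 h and 16.6, 9.07 and 11.3 CPM at 96 h, again without overlap. Its change was 1.29 ± 0.31 (edgeR adjusted p 0.00947), and it was lost in 2 of 15 alternatives, one of them leaving out LB2 at 96 h, replicate 1. At 0 h the largest falls against the parental line were those of MAPK10 (-1.39 ± 0.30, edgeR adjusted p 0.00157) and KIF26B, a kinesin-like protein (-1.29 ± 0.21, edgeR adjusted p 2.25e-05). KIF26B had 37.0, 38.5, 35.7 and 28.5 CPM in the parental line and 21.1, 12.6, 10.6 and 17.8 CPM in LB2, without overlap. The largest rise was that of PLCB1, a phospholipase C, with 5.12, 6.19, 8.07 and 4.11 CPM in the parental line and 3.88, 13.1, 14.5 and 14.3 CPM in LB2. LB2 replicate 1, one of the low libraries, lay below the parental range and the other 3 above it, and the difference was 1.05 ± 0.26 (edgeR adjusted p 0.00569; lost in 1 of 16 alternatives). PSD3 differed by 0.54 ± 0.13 (edgeR adjusted p 0.0052; lost in 2 of 16). At 16 h GMDS rose by 0.52 ± 0.14 (edgeR adjusted p 0.0437), which 14 of 16 alternatives lost, and SMYD3 fell by 0.56 ± 0.14 (edgeR adjusted p 0.0306), which 7 of 16 lost.

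Whether a tagged line responded to 96 h of auxin otherwise than the parental line was tested as the difference of the 2 changes. In LAC, 12 members had a higher and 1 a lower response (13.4%, against 7.43% of all genes, 3.11% higher and 4.32% lower), with a median of 0.31 against 0.06. Without LAC at 0 h, replicate 1, these were 8 and 2, with a median of 0.19. In all, 6 were called without parental at 96 h, replicate 2, and 8 without LAC at 96 h, replicate 2. The largest differences were MAPK10 with 1.85 ± 0.41 (edgeR adjusted p 0.00514) and ANK2 with 1.49 ± 0.28 (edgeR adjusted p 0.00136). For ANK2 the 2 lines moved in opposite directions: LAC went from 3.24, 6.69, 5.4 and 6.03 CPM to 10.0, 10.2, 9.44 and 6.97 CPM, while the parental line fell as given above. The LAC groups did not overlap, and the LAC change alone, 0.69 ± 0.20 (edgeR adjusted p 0.0116), was lost in 2 of 16 alternatives, one of them leaving out LAC at 0 h, replicate 1. MCTP1, named here after its values were seen, also fell in the parental line, and rose in LAC from 9.71, 13.8, 14.6 and 11.2 CPM to 20.8, 22.4, 17.9 and 25.2 CPM. Its difference of the changes was 1.42 ± 0.24 (edgeR adjusted p 0.000505), with a call under all 24 alternatives. GSE1 had the 1 lower response, -0.70, which 4 of 24 alternatives lost.

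In LB1 the response of 1 member was called higher and that of none lower by edgeR (1.03%, against 1.04% of all genes, 0.726% higher and 0.316% lower). An unadjusted p under 0.05 was found for 21 members and for 3571 of all 21485 genes. DESeq2 called 5 and 1 members. The member called by edgeR was SEMA5A, with 1.11 ± 0.20 (edgeR adjusted p 0.00336), called under all 23 alternatives. In all, 3 were called without parental at 0 h, replicate 2, LB1 at 0 h, replicate 1, or LB1 at 96 h, replicate 4, and 2 without parental at 96 h, replicate 3, or LB1 at 96 h, replicate 3. In LB2, 3 were called higher and none lower by edgeR (3.09%, against 0.368% of all genes, 0.27% higher and 0.0977% lower). An unadjusted p under 0.05 was again found for 21 members, and for 2728 of all 21485 genes. DESeq2 called 4 and 0 members. The 3 called by edgeR were MAPK10 (1.70 ± 0.42), NFIA, a transcription factor (0.87 ± 0.21), and SEMA5A (0.78 ± 0.19), each at an edgeR adjusted p of 0.0494. These 3 calls are fragile: of 23 alternatives, 15 lost MAPK10, 16 NFIA and 18 SEMA5A, and leaving out single libraries gave 0 to 2 called members. SEMA5A (LB1 and LB2) and MAPK10 (LAC and LB2) were the members called in the same direction in 2 tagged lines. All response differences share the parental libraries at 0 and 96 h, so calls in 2 lines are not independent. For MAPK10 these include a parental library at 0 h of 18.8 CPM, far from the others of its group. In the parental line SEMA5A had 178, 155, 190 and 181 CPM at 96 h, a change of 0.23 ± 0.13 (edgeR adjusted p 0.283). At 16 h it had 181, 215, 222 and 191 CPM there, a change of 0.44 ± 0.13 (edgeR adjusted p 0.0278) that 8 of 16 alternatives lost. SEMA5A was called in 6 of the 8 comparisons of a line with its own 0 h group, always higher. Its difference of the changes in LAC was 0.40 ± 0.18 (edgeR adjusted p 0.181). SMYD3 was called in 4 of 8, always lower.

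By role, sorted after the files had been seen, the calls in LAC at 96 h were spread over most kinds of gene. Over all genes 6.74% were called higher and 8.65% lower, and over all members 27.8% and 3.09%. Of 22 regulators of GTPases and membrane traffic, 4 rose, among them TBC1D5, PSD3 and NBEA (0.69, 0.70 and 0.80), with a median of 0.22. Of 11 kinases and enzymes of second messengers, 4 rose (MAPK10, PDE10A, PDE4D and PRKCE), with a median of 0.31. Of 12 enzymes of metabolism and modification, 4 rose, including FHIT (0.83) and WWOX, an oxidoreductase at a fragile site (0.64). Of 13 genes of transcription, chromatin and DNA repair, 3 rose (FOXP1, RORA and NFIA), though the median of the group was -0.07. Of 10 genes of guidance, adhesion and matrix, 3 rose and 1 fell. Of 8 genes of cytoskeleton and motors, 3 rose and 2 fell, the 2 being UTRN and PALM2AKAP2. Of 4 little-described genes 3 rose (CCSER1, TMEM117 and CCDC171); the medians of the 3 ion channels and of the 3 cilium and centrosome genes were 0.29 and -0.21. The median of all genes tested was 0.03. Without LAC at 0 h, replicate 1, the traffic, metabolism and little-described groups had 4, 4 and 3 higher, with medians of 0.07, 0.36 and 0.99. Kinases had 3, transcription 1, guidance 1 and 1 lower, and the cytoskeleton 2 and 2 lower, with medians of 0.14, -0.08, 0.21 and -0.05. In LB2 at 96 h the 9 risen members were SEMA5A, MAPK10, KSR2, NAV2, SNX29, TBC1D5 and, among genes of transcription, NFIA, ZFHX3 and HIVEP3.

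The members were also set beside protein-coding genes of shorter span at the same level, all outside chromosomes 18, X and Y. The classes hold 1656 genes under 10 kb, 2844 of 10 to 30 kb, 3483 of 30 to 100 kb, 1267 of 100 to 200 kb, 606 of 200 to 500 kb and the 97 members. In LAC at 96 h, the medians in that order were -0.25, -0.10, 0.06, 0.13, 0.14 and 0.25. In LAC against the parental line at 0 h they were 0.30, 0.19, 0.05, -0.03, -0.12 and -0.27, the opposite order. The very long genes thus stand at the end of a gradient over all spans in these libraries. Of genes of 200 to 500 kb, 17.0% rose and 6.77% fell in LAC at 96 h, and of the members 27.8% and 3.09%. Under 10 kb these shares were 3.38% and 25.5%. At 0 h, 5.12% of the genes of 200 to 500 kb were higher and 14.2% lower than in the parental line. The members had 2.06% higher and 27.8% lower, and genes under 10 kb 26.8% and 3.62%. LB2 had gradients of the same directions over a smaller range, from -0.15 to 0.19 at 96 h and from 0.15 to -0.17 at 0 h. LB1 had medians between -0.06 and -0.04 for the first 4 classes at 96 h, 0.03 for the fifth and 0.10 for the members, and at 0 h all its classes lay between 0.02 and 0.04. In the parental line at 96 h the order was that of LAC at 0 h, from 0.12 under 10 kb to -0.08 in the members. This comparison and those of tagged lines at 0 h share the parental libraries at 0 h, so their likeness is not independent. At 16 h the classes ran from -0.16 to 0.21 in LAC and the other way in LB1, from 0.15 to -0.11. At that time the members' median was the lowest of the 6 classes in LB1 and in the parental line (-0.00, against 0.09 to 0.14), and in LB2 it was 0.09, between -0.02 under 10 kb and 0.17 at 100 to 200 kb.

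**Figure D4:**
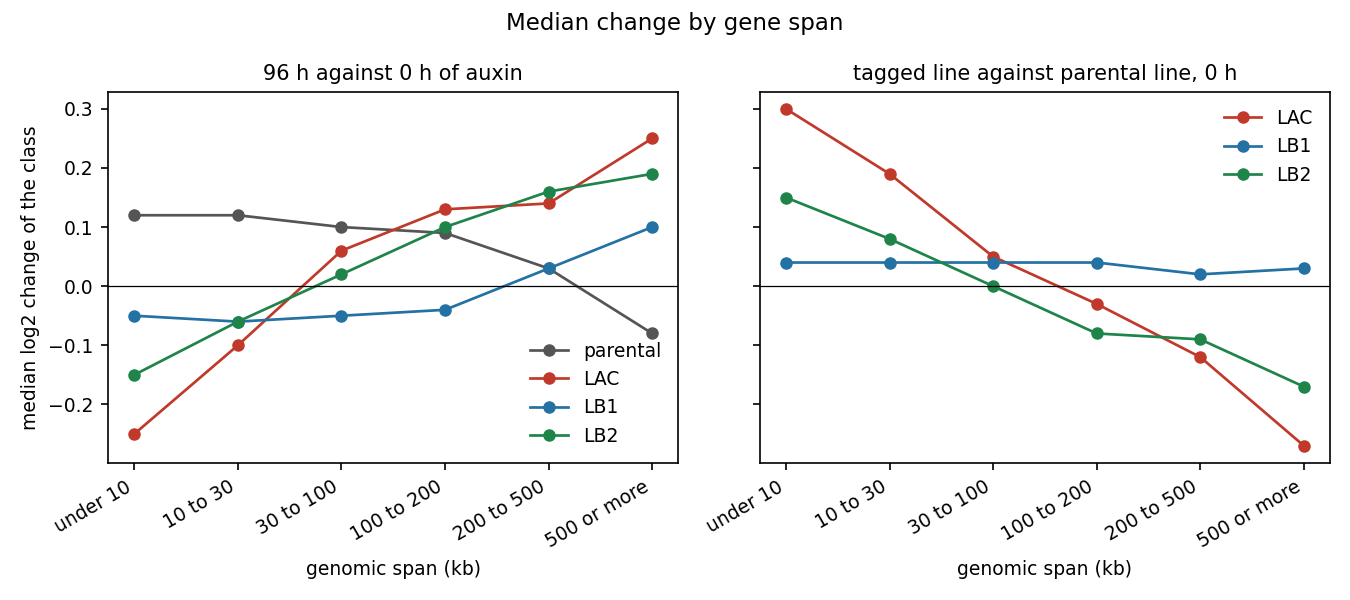
Median log2 change (vertical axis) of protein-coding genes in 6 classes of genomic span in kb (horizontal axis), one line per cell line, for 96 h against 0 h of auxin (left) and for the 3 tagged lines relative to the parental one at 0 h (right). In LAC the medians go from -0.25 to 0.25 on the left and from 0.30 to -0.27 on the right, while those of LB1 on the right stay between 0.02 and 0.04.

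The gradient was smaller without the libraries of least depth. Without the 6 libraries under 5000000 counts, the medians in LAC at 96 h went from -0.14 under 10 kb to 0.14 in the members, and in LAC at 0 h from 0.20 to -0.19. In LB2 at 96 h they then went from -0.02 to 0.21, and at 0 h from 0.02 to -0.11. Genes under 10 kb have a median GC content of 56.5%, the members one of 45.5%. With a trend on GC content and exon length taken out of each library, the medians in LAC at 96 h were between -0.05 and 0.01 for the 5 shorter classes and 0.15 for the members. In LAC at 0 h the trend left 0.11 under 10 kb and -0.21 in the members, and in LB2 at 96 h it left -0.06 and 0.05. Within transcripts of under 42% GC, the 20 members had a median of 0.57 in LAC at 96 h, and the 5 shorter classes had 0.25 to 0.31. Between 42 and 46% GC it was 0.26 in 30 members, and 0.10 between 46 and 50% in 24. Above that the bins hold only 15 and 8 members, with medians of 0.17 and -0.05. In the members, the LAC change at 96 h had a Spearman correlation of -0.38 with GC content and of 0.12 with span (n = 97 genes from the same libraries, a description only). In LB2 at 96 h, the members' medians by GC were between 0.15 and 0.34 with a Spearman correlation of -0.00.

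**Figure D5:**
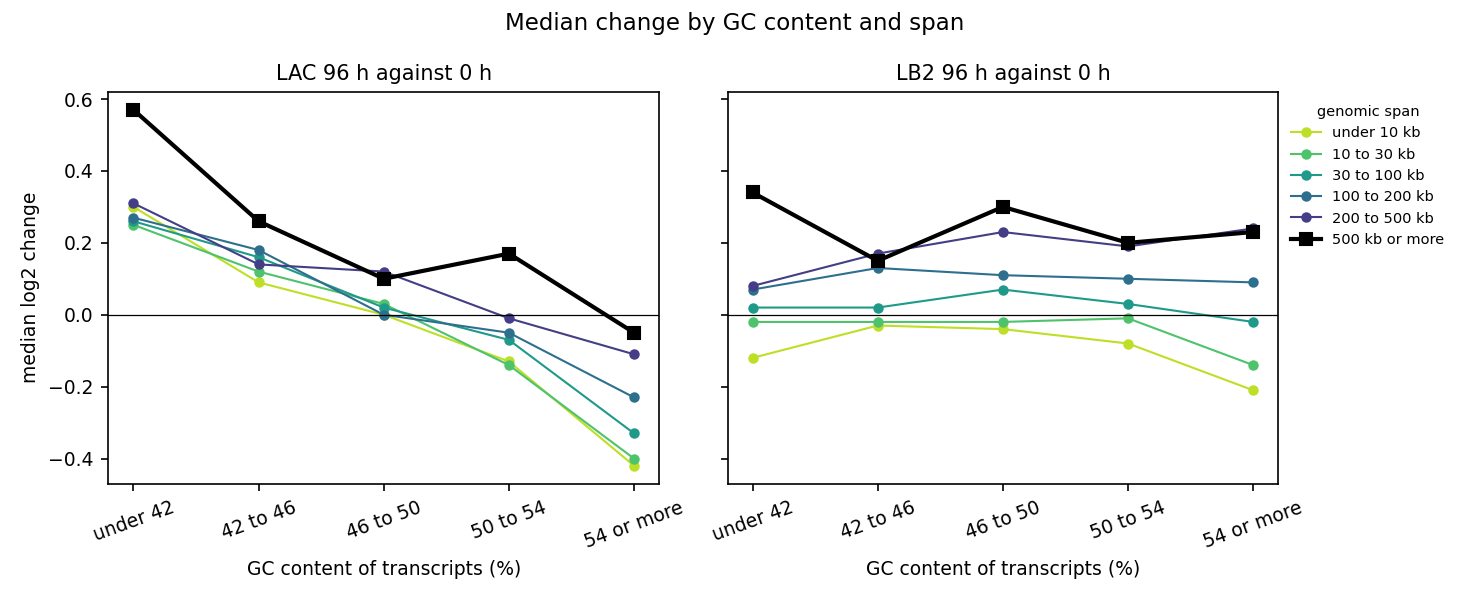
Median log2 change (vertical axis) by GC content of the transcripts in percent (horizontal axis) for 6 classes of genomic span, in LAC (left) and LB2 (right) at 96 h against 0 h of auxin. The very long genes are the black squares. In LAC they go from 0.57 under 42% GC to -0.05 at 54% or more, the last 2 points resting on 15 and 8 genes.

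Of 20 genes known as common fragile sites, 11 were tested, and 7 of these are members (PARD3B, FHIT, PDE4D, IMMP2L, NBEA, RORA and WWOX). In LAC at 96 h 7 of the 11 rose, among them the members FHIT, WWOX, PDE4D, NBEA and RORA. The median was 0.64, and 6.74% of all genes and 27.8% of the members rose. At 0 h 5 of the 11 were lower than in the parental line, with a median of -0.81 (7.09% of all genes and 27.8% of the members lower). The 2 counts share the LAC libraries at 0 h, and without replicate 1 of these they were 5 and 4, with medians of 0.59 and -0.65. FHIT rose by 0.83 in LAC, from 2.59, 3.51, 3.81 and 2.04 CPM to 4.11, 6.21, 6.16 and 5.06 CPM, without overlap. In LB1 at 0 h 3 of the 11 were higher than in the parental line (median 0.32; 1.62% of all genes higher). At 96 h the median was 0.32 in LB1, where 1 rose, -0.05 in the parental line and 0.28 in LB2. Of 38 genes of topoisomerases and transcription elongation, none of them a member, 37 were tested. In LAC at 0 h 17 of these were higher and 1 lower than in the parental line (median 0.38), against 8.71% and 7.09% of all genes. At 96 h 2 rose and 11 fell (median -0.11), against 6.74% and 8.65%. Without LAC at 0 h, replicate 1, the counts were 16 and 0 at 0 h (median 0.33) and 1 and 4 at 96 h (median -0.16). Whether these genes, GC content or library depth have a part in the members' changes was not tested.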

How the data were processed

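RNA-seq was analysed in 46 libraries in 12 groups. RNA from an RNeasy kit was, per the labels' protocols, depleted of ribosomal RNA, made into stranded libraries and sequenced in pairs. Without poly(A) selection, unspliced RNA is also read, but only counts over exons enter here. The authors deposited raw counts per gene, made with featureCounts 1.6.4 in an nf-core/rnaseq 1.4.2 environment, per the file headers. The submitters' processing notes name STAR 2.7.10a and GRCh38. Strand setting, treatment of multiply mapped reads and annotation release are not given in the sources used here.

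Span is the distance from the first to the last counted exon base, so a far alternative start lengthens it. Of 62757 genes, 1 was rejoined from 3 lines, ANK2 with 55143 exonic bases. Gene types, transcript GC content and overlaps come from GENCODE release 29, which held 92.9% of the genes. A symbol was found for 67.4%. Windows before starts come from the RefSeq table (GRCh38.p14).

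edgeR 4.0.16 (R 4.3.3) was fitted once to all libraries with TMM scaling, its default filter by group and 1 coefficient per group. Of the 21485 genes left, all 97 members were tested, and p-values were adjusted by Benjamini-Hochberg. Tests are two-sided. CPM values are TMM-scaled, while the level limit used plain CPM. On simulated data for the parental line (96 h against 0 h), with 200 genes changed 2-fold among 19325, the test found 70.5%, none with the wrong sign, and 6.6% of its calls were false.

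Named genes were, by rule, the 5 longest, the 5 highest per kb of exon, the 2 largest called rises and falls in each comparison, members whose response differed alike in 2 tagged lines, and those next to the limits. Other names are marked as chosen after their values were seen, except members listed by role or list. The members, lists and comparisons were chosen with earlier results of these data known. Alternatives were RLE scaling, library sizes alone, no low-count filter, DESeq2 1.42.0, the compared libraries alone, removal of a GC and length trend, leaving out libraries under 5000000 counts or each library in turn, and the replicate number as a block. Same-numbered libraries deviated together in every pair only in LAC at 16 h (correlations 0.124 to 0.691), so there the numbers may pair the libraries. The block left the 4 calls there unchanged. It gives each number 1 effect shared by all groups, so it cannot test a pairing within LAC.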

Additional observations from a re-analysis of the deposited data

Results flagged for a closer look

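In 90 groups of 4 libraries, 9 had 1 library far from the other 3, and chance gives about 1 in 20. In levels these were MAPK10 in the parental line at 0 h (18.8 CPM), FOXP1 there (42.0 CPM), UTRN in the parental line at 96 h (99.8 CPM), FOXP1 and MCTP1 in LB1 at 96 h (65.7 and 8.08 CPM) and ANK2 in LB2 at 16 h (4.35 CPM). In the median deviation of the members, on the log2 scale, they were LAC at 0 h (-0.65), LB2 at 16 h (-0.5) and the parental line at 96 h (-0.1). The first 2 of these are libraries with under 5000000 counts, and the ANK2 value comes from the same LB2 library. The MAPK10 and FOXP1 values of the parental line at 0 h both come from replicate 4, which held 3770181 counts. UTRN and the median of the parental line at 96 h both come from replicate 2.

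In 17 cases a member's change at 96 h differed between a tagged line and the parental line at an edgeR adjusted p under 0.05. In LAC the differences of the log2 changes were 1.85 for MAPK10, 1.49 for ANK2, 1.42 for MCTP1, 1.36 for MARCHF1, a ubiquitin ligase, 1.16 for STXBP5L, a syntaxin-binding protein, 1.02 for CCSER1 and 1.01 for FOXP1. They were 0.98 for NBEA, 0.97 each for PDE10A, a phosphodiesterase, and RAD51B, a protein of DNA repair, 0.93 for WWOX, 0.68 for LAMA2, a laminin, and -0.70 for GSE1. In LB1 it was 1.11 for SEMA5A. In LB2 it was 1.70 for MAPK10, 0.87 for NFIA and 0.78 for SEMA5A. Of the alternatives, 13 of 24 lost LAMA2, 10 of 24 each CCSER1 and STXBP5L, and 7 of 24 RAD51B.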

How the results depend on the processing

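Over the alternatives, the members' median change kept its sign in LAC (0.14 to 0.36 at 96 h, -0.46 to -0.17 at 0 h) and in LB2 (0.05 to 0.25 at 96 h, -0.22 to -0.06 at 0 h). The numbers of called members moved more. In all, 6 libraries of low depth limit the precision, and the least deep has a median of 9 counts per member.

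Shares of all genes called under the same setting stand in parentheses, in the same order. They are over the genes tested under that setting. These were 45434 for DESeq2 and without the low-count filter, against 21485 in the main fit. Shares of these 2 settings are thus not to be set beside those of the main fit. In the LAC response difference DESeq2 called 1058 genes higher and 912 lower, and the main fit 668 and 928. Without the low-count filter, 10 members were called in the parental line at 16 h and 5 at 96 h (3.21% and 2.67%), 1 each in LB1 and LB2 at 16 h (0.55% and 0.792%), 1 in the LB2 response difference (0.361%) and 14 in LB2 at 0 h (2.72%). Removing the trend on GC and length gave 32 and 29 in the parental line at 16 and 96 h (13.5% and 14.2%), 10 and 16 in LB1 (5.05% and 7.38%), 6 and 14 in LB2 (3.57% and 7.96%), 11 in the LB1 response difference (3.71%) and 19 in LB1 at 0 h (7.07%). Without libraries under 5000000 counts they were 28 and 19 in the parental line (12.3% and 11.7%), 1, 11 and 6 in LAC, LB1 and LB2 at 16 h (0.852%, 4.66% and 2.57%), 2 and 1 in the LB1 and LB2 response differences (1.65% and 0.571%) and 14 in LB1 at 0 h (4.7%). Within the compared libraries alone they were 35 in the parental line at 16 h (22.5%), 0 and 15 in LAC at 16 and 96 h (0.064% and 6.22%), 15 in LB1 at 96 h (8.26%), 0 and 1 in LB2 at 16 and 96 h (0.0243% and 0.32%), 11 and 0 in the LB1 and LB2 response differences (4.0% and 0.107%), and 16, 15 and 7 in LAC, LB1 and LB2 at 0 h (9.06%, 8.52% and 3.18%). DESeq2 called 7 in LAC at 16 h (2.86%), 9 and 12 in LB1 at 16 and 96 h (1.31% and 2.25%), 16 in LB2 at 96 h (3.0%), and 20 and 6 in the LAC and LB1 response differences (4.34% and 0.964%). Library sizes alone gave 21 and 6 in the same 2 differences (8.21% and 1.7%), and RLE scaling 4 in that of LB1 (1.42%). The cause of these shifts was not tested.

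Leaving out 1 library at a time gave 7 to 18 and 7 to 13 called members in the parental line at 16 and 96 h, 0 to 17 and 23 to 32 in LAC, 0 to 3 and 3 to 7 in LB1, 1 to 7 and 6 to 10 in LB2. It gave 6 to 17, 1 to 3 and 0 to 2 in the LAC, LB1 and LB2 response differences, and 21 to 26, 4 to 9 and 17 to 23 in LAC, LB1 and LB2 at 0 h. Shares of all genes in these fits are not given here.

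With the replicate number as a block, 14 members were called in the parental line at 16 h, 32 in LAC at 96 h, 4 in LB1 at 16 h, 15 in the LAC response difference and 10 in LB1 at 0 h, and 2 each in LB2 at 16 h and its response difference. Over all 21485 genes, in the same order, 897, 1520, 294, 703, 370, 338 and 81 were higher with the block. Lower were 974, 1905, 179, 1015, 542, 97 and 37. Outside LAC at 16 h, same-numbered libraries did not deviate together in every pair (correlations from -0.573 to 0.624). With 3 or 4 pairs per comparison, this cannot exclude a pairing, and none was assumed.

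Of the 27 members higher in LAC at 96 h, 24 stayed called with the trend removed, 25 without libraries under 5000000 counts, 20 without LAC at 0 h, replicate 1, and 13 in the LAC libraries alone. Over all named genes and comparisons, 2200 alternative values kept the side of the threshold, 229 lost a call, 52 gained one and none reversed.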
